A study of Saccharomyces cerevisiae with 32 samples.

Results

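The unperturbed translation programme of growing budding yeast was described from the wild-type TIF1 strain (NSY20) at 30 °C, as the translational efficiency (TE) of each gene. TE was the log2 footprint level minus the log2 mRNA level of the gene. Members were the genes whose level was at least 50 in both assays, as linear normalized read numbers, which held for 3776 of the 4921 genes in the table and 5328 in any table of the series. The study set mutants of the helicases Ded1 and eIF4A, the latter encoded by TIF1 and TIF2, against wild-type strains by ribosome profiling and mRNA sequencing, with 32 samples in 16 groups of 2 replicates. Whole Saccharomyces cerevisiae cells were grown in synthetic complete medium, shifted to the stated temperature and given cycloheximide at 100 µg/ml for 2 min, and footprints were made with RNase I, per the labels. Cycloheximide, which stops elongating ribosomes, was given to the cultures of every group. The groups set beside this one were wild-type TIF1 (NSY20) at 37 °C, wild-type DED1 at 15 °C (NSY4) and at 37 °C (NSY10), and the temperature-sensitive tif1-ts mutant (NSY21) at 30 °C. The labels name no auxotrophy or other allele. Each group appears as 1 value per gene and assay, so no value below has a replicate check, and no p-value was computed.

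A ribosome footprint is the stretch of mRNA that a ribosome shields from nuclease, so footprints per mRNA reflect how many ribosomes an average copy of that mRNA carries. Most yeast mRNAs are recruited through the cap by the eIF4F complex, which includes eIF4A, and scanned to the start codon. Upstream open reading frames in the leader can capture scanning ribosomes, the classic case being GCN4, and base pairing between an intron and the leader holds the unspliced HAC1 mRNA untranslated. No gene or leader sequence is printed, because none was among the sources used here.

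The median TE of the members was 0.18 and its SD across genes 0.81 on the log2 scale. TE is given from here on relative to that median, as relative TE. The quartiles lay at -0.50 and 0.55, and the 5th and 95th percentiles at -1.17 and 1.37, a 5.83-fold span. The extremes were far beyond, at -4.99 and 6.70. At least 2-fold above the median stood 403 genes, 10.7% of the members, and at least 2-fold below it 304, 8.05%. At least 4-fold away were 43 above and 30 below. These counts depend on the reference point: set against total footprints over total mRNA, which lies 0.83 above the median on the log2 scale, 62 genes were 2-fold above and 1522 below. Levels per gene length, introns included, varied more for footprints (SD 2.00, log2) than for mRNA (SD 1.56). The rank correlation of both was 0.90 over 3774 genes with a known length. Those points share the length by which both levels were divided.

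**Figure D1:**
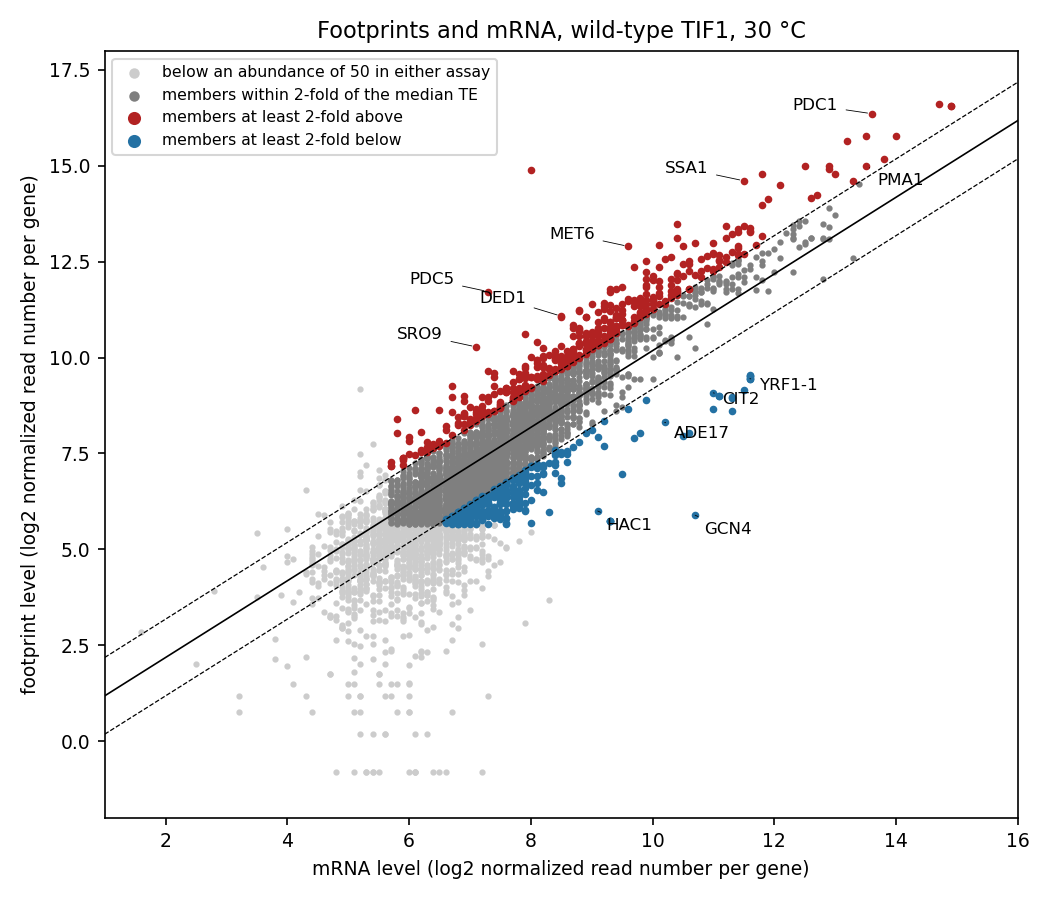
Footprint level against mRNA level of each gene in wild-type TIF1 at 30 °C, both as log2 normalized read number per gene, with the median TE as a solid line and 2-fold lines dashed. Red points are the 403 members at least 2-fold above the median TE, blue points the 304 at least 2-fold below, and pale points the genes under a level of 50 in either assay; GCN4 and HAC1 lie far below the line and PDC5 and SRO9 far above it. Rows with 0 reads are not drawn.

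The spacing of low footprint values was that of whole reads, 1 read being worth 0.5687 on the linear scale, and gave about 5684000 footprint reads for the group. Of 73 genes with up to 10 reads, 84.9% came within 0.1 read of a whole number. The value of 1 read was chosen to make this share highest, so the share is not an independent check. The counting standard error (SE) of a log2 footprint level was 0.154 at the floor, where 87.9 reads stood behind it, and 0.081 for the median member. This covers counting error only: without molecular identifiers, reads do not stand for independent molecules. mRNA levels were printed to 1 decimal and their depth is unknown. In bulk cultures, fewer cells with an mRNA and less of it per cell cannot be told apart. Of 7 heat-shock mRNAs, 6 stood lower among all mRNAs at 30 °C than in the same strain at 37 °C, the exception being HSP30. The a-cell genes STE2 and BAR1 were 3.5 and 2.0 above the median log2 mRNA level, and the alpha-cell genes STE3 and SAG1 at -2.5 and -0.7. The a-factor genes MFA1 and MFA2 were at -0.4 and -0.2, so that the a-cell genes did not all stand high.

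GCN4, the transcriptional activator of amino acid biosynthesis, had the lowest TE of all members. Its mRNA level was 10.7 and its footprint level 5.89 on the log2 scale, a relative TE of -4.99 (footprint counting SE 0.14, 104 reads). In the other wild-type groups its relative TE was -5.77 in TIF1 at 37 °C, -4.61 in DED1 at 15 °C and -4.15 in DED1 at 37 °C, so it stayed more than 4 log2 units under the median in each. HAC1, the transcription factor of the unfolded protein response, had the lowest TE among named single-copy genes after GCN4, with a footprint level of 6.0, an mRNA level of 9.1 and a relative TE of -3.28 (SE 0.14, 113 reads). Its values in the other groups, in the same order, were -2.88, -2.76 and -3.93. The tif1-ts mutant at 30 °C gave -4.93 for GCN4 and -3.69 for HAC1. For these genes and the 15 highest and 15 lowest named genes below, values in other groups were taken without a floor. Their counting SEs there were not computed.

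Many of the other lowest values belonged to repeated genes. ASP3, the cell-wall asparaginase, is listed as 4 copies with identical values in every column, each with a relative TE of -3.74; ASP3 was named after its values were seen. The YRF1 genes encode the helicase of the Y′ elements, repeats next to telomeres. All 6 YRF1 members fell between -2.33 and -2.24, with mRNA levels of 11.6 and footprint levels near 9.5 on the log2 scale. YRF1-1 had the lowest and YRF1-7 the highest of these. Their near identity leaves the assignment of reads among copies uncertain, since the treatment of reads with several matches is not stated in the sources used here.

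Position on the chromosome was not part of the choice of members. Of the 30 lowest members, 16 lay within 5 protein-coding genes of a chromosome end in the R64 gene table, against 0 of the 30 highest. Only 43 members, 1.14%, lay that near an end. Their median relative TE was -0.96, with 21 at least 2-fold below the median of all members and 2 at least 2-fold above. Open reading frames without a standard name were among them: YPR204W had -2.86 and YHL050C -2.75, both named after their values were seen. All 6 YRF1 members were among the 16 low genes near an end, and the others of the 16 had no standard name. The repeats shared by these chromosome ends carry the same uncertainty as YRF1. Copies of the same repeat may thus be counted several times, and the 16 are not independent genes. The count therefore does not describe genes near chromosome ends in general.

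Among the 15 lowest named genes with levels of at least 100 in both assays, a floor that GCN4 and HAC1 miss in footprints, were 4 metabolic enzymes. CIT2, the peroxisomal citrate synthase, had an mRNA level of 11.0 but a footprint level of 9.08, a relative TE of -2.10 (SE 0.05). ADE17, which carries out the last steps of purine synthesis, had -2.07 (SE 0.06). GDH2, the NAD-dependent glutamate dehydrogenase, had -1.95 (SE 0.11), and MTD1, a folate-dependent enzyme, -1.5 (SE 0.09). Values differed between the wild-type groups, with no replicate spread to judge them by. ADE17 read -1.60 in TIF1 at 37 °C but 0.72 in DED1 at 15 °C and 0.97 at 37 °C. MTD1 read -0.73, 0.32 and -0.19 in the same order, and CIT2 -2.67, -0.71 and -2.88.

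The rest of these genes had other roles. EBS1, a relative of the telomerase subunit Est1, stood at -1.82, and AMN1, an antagonist of mitotic exit, at -1.68. The myo-inositol transporter gene ITR2 stood at -1.60 and the siderophore transporter gene ENB1 at -1.39. GID8, a subunit of the ubiquitin ligase that removes gluconeogenic enzymes, had -1.56, the cyclin-like CLG1 -1.41 and ENV9 -1.40. Their footprint counting SEs were 0.08 to 0.11, well under these distances from the median. ENB1 was lower still in the other groups, at -2.11, -1.80 and -3.40.

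At the top stood enzymes of fermentation and chaperones. PDC5, a pyruvate decarboxylase, had a footprint level of 11.72 over an mRNA level of 7.3 on the log2 scale, a relative TE of 4.24. The closely similar PDC1 had 2.58, with far more of both, at 16.36 and 13.6. Reads of this pair may be shared, as may those of ADH2 (2.55) with ADH1, of ENO1 (2.31) with ENO2, and of the cytosolic Hsp70 genes SSA1 (2.93) and SSA2 (2.82) with each other. The values of these genes are therefore uncertain beyond their counting SEs.

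Genes without such a named partner were also at the top. MET6, the methionine synthase, had a footprint level of 12.90 and an mRNA level of 9.6, a relative TE of 3.12. SRO9, an RNA-binding protein with a La motif, reached 3.00 from levels of 10.28 and 7.1. ILV5, an enzyme of branched-chain amino acid synthesis, had 2.91. The Hsp110 gene SSE1 followed at 2.65, the mitochondrial Hsp70 gene SSC1 at 2.49 and the actin-binding protein gene ABP1 at 2.54. ALD6, which makes acetate, had 2.44, and ERG13, the HMG-CoA synthase, 2.39. DED1, the helicase studied in the other arm of the series, had 2.40 (levels of 11.08 and 8.5) and lay among the 15 highest named genes of that level. The highest value of all, 6.70, belonged to YOL013W-A, an open reading frame that the reference gene table did not match. Alone it held 0.944% of the members' footprints against 0.0161% of their mRNA; it was named after its values were seen.

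The cytosolic translation machinery lay above the median nearly throughout. The list medians here and below are relative to the median member, and 18 of the 33 change sign when set against total footprints over total mRNA. With a floor of 200 in both assays 7 change sign, namely those of ribosome biogenesis, amino acid permeases, the ER, the proteasome, histones, RNA polymerases and mRNAs with upstream open reading frames. With a floor of 10, those of mitochondrial ribosomal and nuclear pore proteins do. Of 20 aminoacyl-tRNA synthetase genes, whose products charge tRNAs, 20 were above the median and 13 at least 2-fold above, from GLN4 at 0.46 to DPS1 at 1.97, with a list median of 1.23. Among all members 10.7% stood that high and 8.05% that low, the shares to set beside the list counts here and below. Of 17 elongation and termination factors, 9 were 2-fold above, with a median of 1.05. EFT2, which encodes the translocase eEF2, had 1.85, the elongation factor gene YEF3 had 1.62, and TMA19 had the lowest value at -0.12. EFT2 shares its protein with EFT1, so its reads are uncertain.

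Initiation factors had an SD of relative TE of 0.59, against 0.38 for the synthetases and 0.60 for elongation and termination factors. None of the 29 was below the median, 10 were 2-fold above it, and the list median was 0.65. The eIF3 subunit gene TIF35 was at 0.00 and GCD6, of the exchange factor eIF2B, at 0.01. The cap-binding protein gene CDC33 had 0.73, and the scaffolds TIF4631 and TIF4632, which hold eIF4A in eIF4F, had 1.01 and 1.38. TIF2, encoding eIF4A, had 1.06 from levels of 12.94 and 11.7, which may include reads of its near-identical partner; TIF1 was not analysed here. CAF20, a cap-complex inhibitor, had 1.68, PAB1, the poly(A)-binding protein, 2.21, and DED1 the highest value.

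Ribosomal protein genes had an SD of relative TE of 0.43 for the large and 0.41 for the small subunit, against 0.81 over all members. Of 80 large-subunit genes 78 were above the median and 20 at least 2-fold above, with a median of 0.73. Small-subunit genes gave 55 of 56 above, 13 at least 2-fold above, and a median of 0.84. RPL20A had 1.61 and RPS26A 1.62 at the top, RPL30 had -0.34 and RPS23B -0.24 near the bottom. Duplicated genes mostly had like values: the 58 A and B pairs differed by a median of 0.18, and 49 of them by no more than 0.5. The reads of such pairs may be shared. RPL22B departed most, at -1.36 against 0.68 for RPL22A. Ribosome biogenesis factors, which assemble the subunits, sat near the median, at 0.14 over 125 members with 9 at least 2-fold above. The 57 mitochondrial ribosomal proteins had a median of -0.04, with MRP7 at -1.08 and EHD3 at 0.92.

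Central carbon metabolism held the highest list median. Of 18 glycolytic and fermentation genes 14 were at least 2-fold above the median member, and the list median was 1.99. Both phosphofructokinase genes, for a committed step of glycolysis, had like values, PFK1 2.13 and PFK2 2.07. The hexokinase gene HXK2 had 2.16 and the pyruvate kinase gene CDC19 2.28, while its minor relative PYK2 had -0.28 and the mitochondrial alcohol dehydrogenase gene ADH3 had 0.29. For the TCA cycle the median was 0.79, with 8 of 18 genes 2-fold above, led by KGD1 of the oxoglutarate dehydrogenase at 2.03. For oxidative phosphorylation genes of the nucleus the median was 0.66, and 6 of 31 stood 2-fold above. ATP1 and ATP3 of the ATP synthase had 1.54 and 1.49, and the alternative NADH dehydrogenase NDI1 had -0.24.

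Biosynthetic pathways were mixed around high medians. Of 70 amino acid biosynthesis genes, 23 were at least 2-fold above the median and 0 below, with a list median of 0.66. Apart from MET6 and ILV5 these included GLT1, the glutamate synthase, at 2.25. ALT2 had -0.65 and SER3 -0.61. CPA1, the arginine-regulated carbamoyl phosphate synthase subunit, had -0.38. Sulfur and methionine genes divided, with SAM1, an S-adenosylmethionine synthetase, at 2.05 and STR2, of transsulfuration, at -1.18. Their median of 1.06 rested on 11 of 17 genes and was 0.165 when the floor was 10. Of 24 ergosterol genes 7 were 2-fold above and 1 below, with ERG13 highest and the lanosterol synthase gene ERG7 at -1.12.

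Chaperones lay mostly above the median. Of 34 genes 30 were above it, 16 at least 2-fold above and 0 at least 2-fold below, with a median of 0.91. HSP82, HSP60 and the Hsp90 co-chaperone gene STI1 had 2.19, 2.17 and 2.21. The heat-induced SSA4 was lowest at -0.41, and the mitochondrial disaggregase gene HSP78 had -0.02. The chaperonin and prefoldin genes, which fold actin and tubulin, had a median of 0.57, with none of 14 at least 2-fold from the median member. The 33 proteasome genes had an SD of 0.30, from SEM1 at -0.32 to RPN1 at 0.77, with a median of 0.19 and none past 2-fold.

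Secretory and surface genes ranged widely. Cell wall proteins had a median of 0.83 and 17 of 43 at least 2-fold above, among them SIM1 at 2.24 and the mannoprotein gene CWP2 at 2.10, with the daughter-cell glucanase gene SCW11 at -0.27. Vacuolar ATPase genes had a median of 0.70 over 18 members. Of those of level 100 or more, VMA1 and VMA2 were highest at 1.8 and 1.85, and VMA16 and STV1 lowest at -0.13 and -0.30. The list of COPI and COPII coats had a median of 0.59 over 23 members. The COPII coat assembly genes SEC16 and SEC31 stood high in it, at 2.18 and 1.97, but COPII was not the high part as a whole. SFB2 was lowest in the list at -0.29, and ERV46 had -0.15. The 7 subunits of the COPI coat had a median of 0.80, from 0.17 to 1.24. In the ER list, with a median of 0.38, SEC61, the translocon pore, had 1.61 and ALG5, of lipid-linked sugar synthesis, -0.88.

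Nutrient transporters were not uniformly high. For plasma membrane transporters other than those for hexoses and amino acids the median was -0.08. Of 39, 5 stood 2-fold above and 7 below, beside 10.7% and 8.05% of all members. A further 11 listed genes did not enter, 8 of them missing the footprint floor alone. PMA1, the proton pump that energises the plasma membrane, had 1.31 from levels of 14.99 and 13.5. FET3, the iron-uptake oxidase, had 1.64, whereas the low-affinity iron transporter gene FET4, named after its values were seen, had -1.82. The 6 hexose transporters were all above the median, HXT3 at 0.92 and HXT6 at 0.53; HXT6 is near-identical to HXT7. HXT2, named after its values were seen, had 2.43 over an mRNA level of 5.8. Of 14 amino acid permeases 8 were above, from TAT2 at -0.88 to MUP1, the methionine permease, at 1.06 among those of level 100 or more.

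Regulatory genes had medians below that of all members. Of 90 sequence-specific transcription factors, 0 stood at least 2-fold above the median and 12 below, beside 10.7% and 8.05% of all members, and 25 were above it at all, with a list median of -0.39. After GCN4 and HAC1 the lowest was GCR1, an activator of glycolytic genes, at -2.05 with 115 reads. Of 81 protein kinases, 0 were 2-fold above and 8 below, the latter near the share among all members; 18 were above the median, and the list median was -0.36. SAK1, which activates Snf1, had -1.91, SAT4 -1.17, and TDA1 was highest at 0.97. The median for regulators of the cell cycle was -0.31, with the mitotic cyclin CLB1 at -1.29 and the Cdk subunit gene CKS1 at 1.25. GCR1, SAK1 and CKS1 were named after their values were seen. All these genes met the floor of 50 in footprints; of the list genes that did not enter, 24 of 34 transcription factors and 14 of 18 kinases missed the footprint floor alone.

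Most mRNAs with reported upstream open reading frames were not above the median: 4 of 18 were, and values ran from -4.99 to 1.44. Their median was -0.42 over 18 members, with 3 at least 2-fold below and 2 above, beside 8.05% and 10.7% of all members. Of the 9 others in the table, 8 missed the footprint floor only. The median was 0.05 with a floor of 200 and -0.64 with a floor of 10. Below the median stood GCN4, the polyamine transporter gene HOL1 at -1.29, the kinase gene MKK1 at -1.32 and the stress regulator YAP1 at -0.46. CLN3, a G1 cyclin, had -0.18 and CPA1 -0.38. LEU4, of leucine synthesis, and TIF4631 were above, at 1.44 and 1.01. MKK1 and CLN3 were named after their values were seen.

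The remaining lists had medians between -0.20 and 0.40. General stress and reserve carbohydrate genes had a median of 0.40, with the peroxiredoxin gene TSA1 at 1.76 and the catalase gene CTT1 at -0.74. The mitochondrial import machinery had 0.35, with the outer-membrane pore TOM40 at 1.66 and SAM50 at -0.85. RNA polymerase subunits had 0.17, the largest subunit of polymerase II, RPO21, reaching 1.99 and RPC53 -1.02. Histones had 0.06 and nuclear pore genes -0.07, NSP1 being highest of the latter at 1.39. For mating genes the median was -0.20 and the mean 0.05, so that the sign depended on the summary. The a-factor gene MFA2 had 1.92 and the agglutinin gene AGA1 1.79, while the G protein gene STE4 had -1.17.

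**Figure D2:**
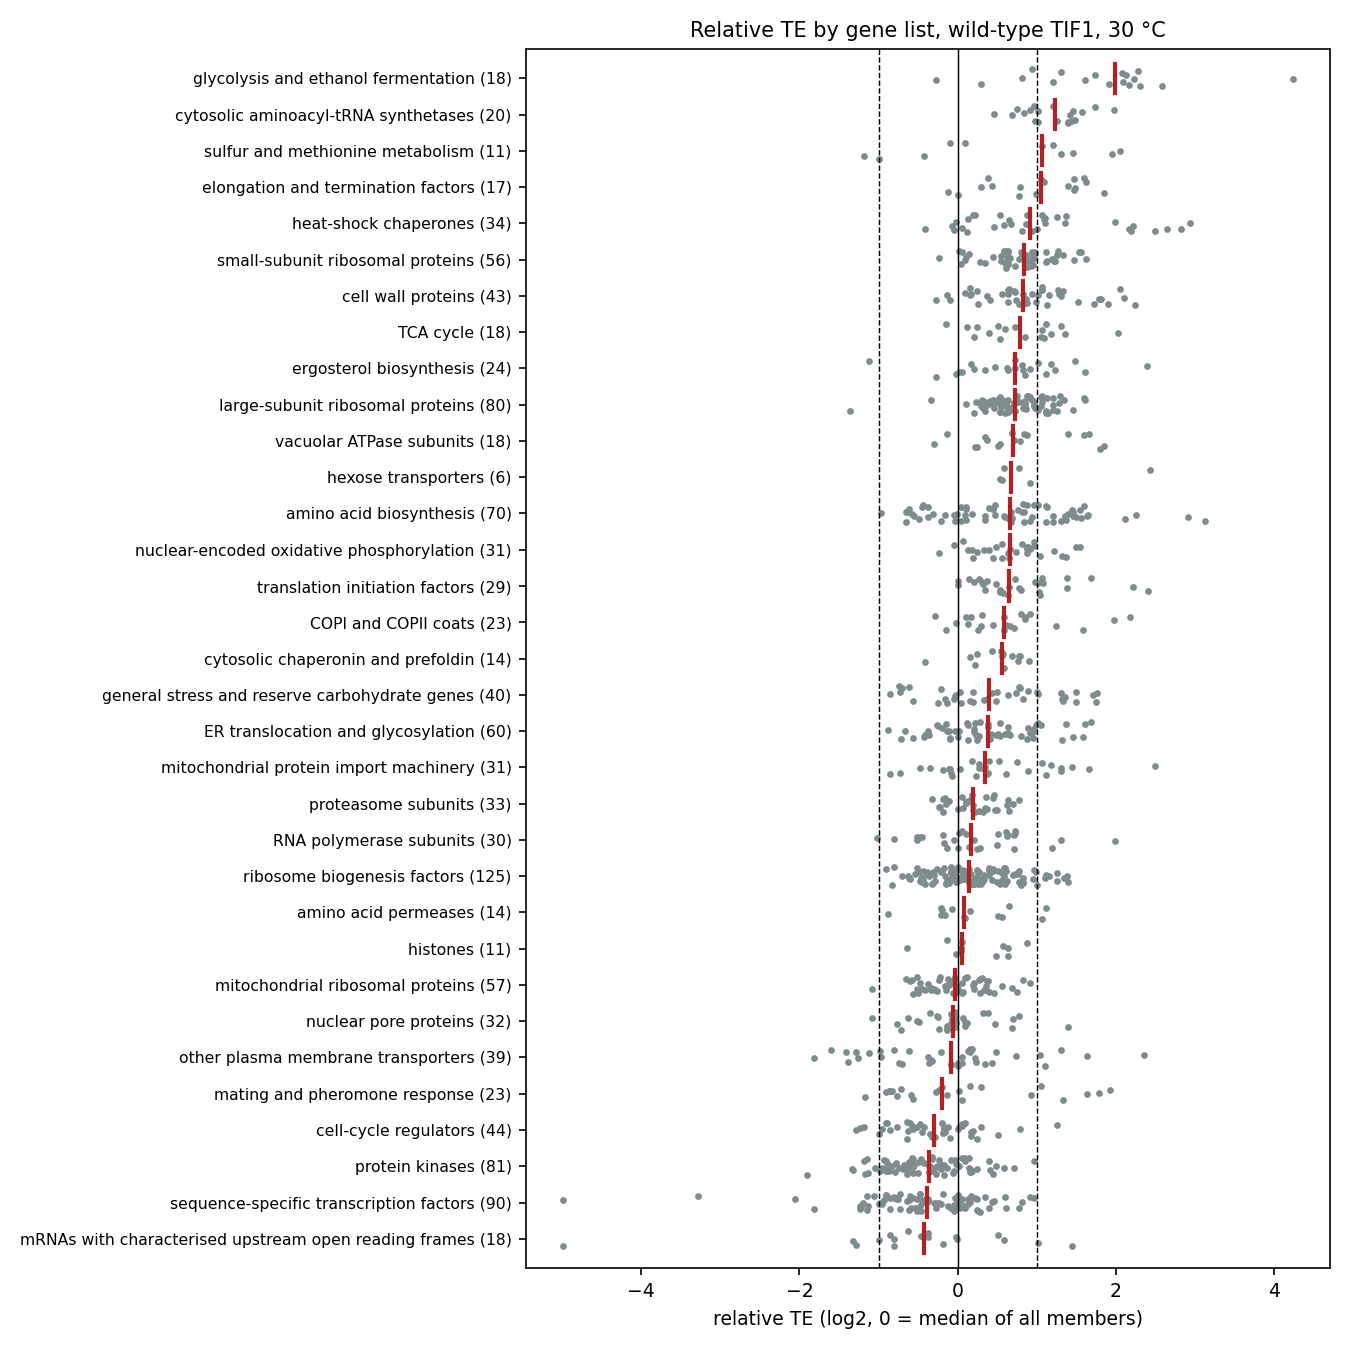
Relative TE (log2, 0 = median of all members) of the members of 33 gene lists in wild-type TIF1 at 30 °C, ordered by list median; each point is a gene, the red bar the list median, and the number of members stands in parentheses. Glycolysis is highest at 1.99 and the list of mRNAs with upstream open reading frames lowest at -0.42; dashed lines mark 2-fold, and 18 of the medians change sign when set against total footprints over total mRNA.

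The floor itself removed genes of low TE. A further 637 genes reached 50 in mRNA but not in footprints, 91 the reverse, and 417 missed both. Of the 637, 1 was at 0 reads, and the other 636 had a median relative TE of -1.54, with 499 (78.5%) at least 2-fold below the members' median. Just outside were RHB1 and CRT10, at 49.9 in footprints with relative TEs of -0.74 and -1.94. Just inside were SPC34 and EOS1, at 50.2, with -0.63 and -1.53. Outside the floor, BRE4 had 15.0 reads over an mRNA level of 7.9 and a relative TE of -4.99 (SE 0.37). ARN2, a siderophore transporter gene, had 13.7 reads and -4.02 (SE 0.39), and the heat-induced SSA3 had 14.7 reads and -3.82 (SE 0.38). BRE4, ARN2 and SSA3 were named after their values were seen. GCN4 is thus the lowest of the members, not of every gene with an mRNA.

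Genes with more mRNA had a higher TE. When the members were split into 10 equal bins by mRNA level per length, the median relative TE was -0.29 in the lowest bin and 0.79 in the highest. At least 2-fold above the median stood 5.56% of genes in the lowest bin and 34.7% in the highest. The rank correlation of TE with mRNA per length was 0.41 over 3774 genes, which share the mRNA value in both measures, and low mRNAs enter only if their footprints also reach the floor. Gene length, introns included, gave -0.20. The median relative TE was 0.41 in the shortest of 10 bins and 0.01 in the longest, with lower values between, down to -0.28. Within 5 bins of mRNA per length the correlation with gene length was 0.05, -0.03, -0.02, 0.10 and 0.12. Each of these was nearer 0 than the value over all members.

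Footprints were concentrated on fewer genes than mRNA. The 11 genes with the most footprints held 21.2% of the members' footprints and 11.1% of their mRNA, and the 100 with the most held 49.5% and 32.6%. The 100 genes with the most mRNA held 35.3% of mRNA. TDH3, a glyceraldehyde phosphate dehydrogenase, held 3.15% of footprints and 1.67% of mRNA. Its reads may be shared with those of TDH1 and TDH2, so these shares are uncertain. TEF1 and TEF2, which encode the same elongation factor and have the same values, held 3.00% each. As a group, glycolysis and fermentation took 16.8% of footprints from 8.30% of mRNA. Chaperones took 4.76% from 2.31%, and elongation factors 8.78% from 5.68%. Ribosomal proteins did not gain: large-subunit genes held 11.6% of footprints and 12.7% of mRNA, and small-subunit genes 8.50% and 9.23%. Their summed footprints thus lay under the ratio of the totals, while the small-subunit list median was 0.01 above that ratio. Transcription factors held 0.436% of footprints and 1.04% of mRNA.

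**Figure D3:**
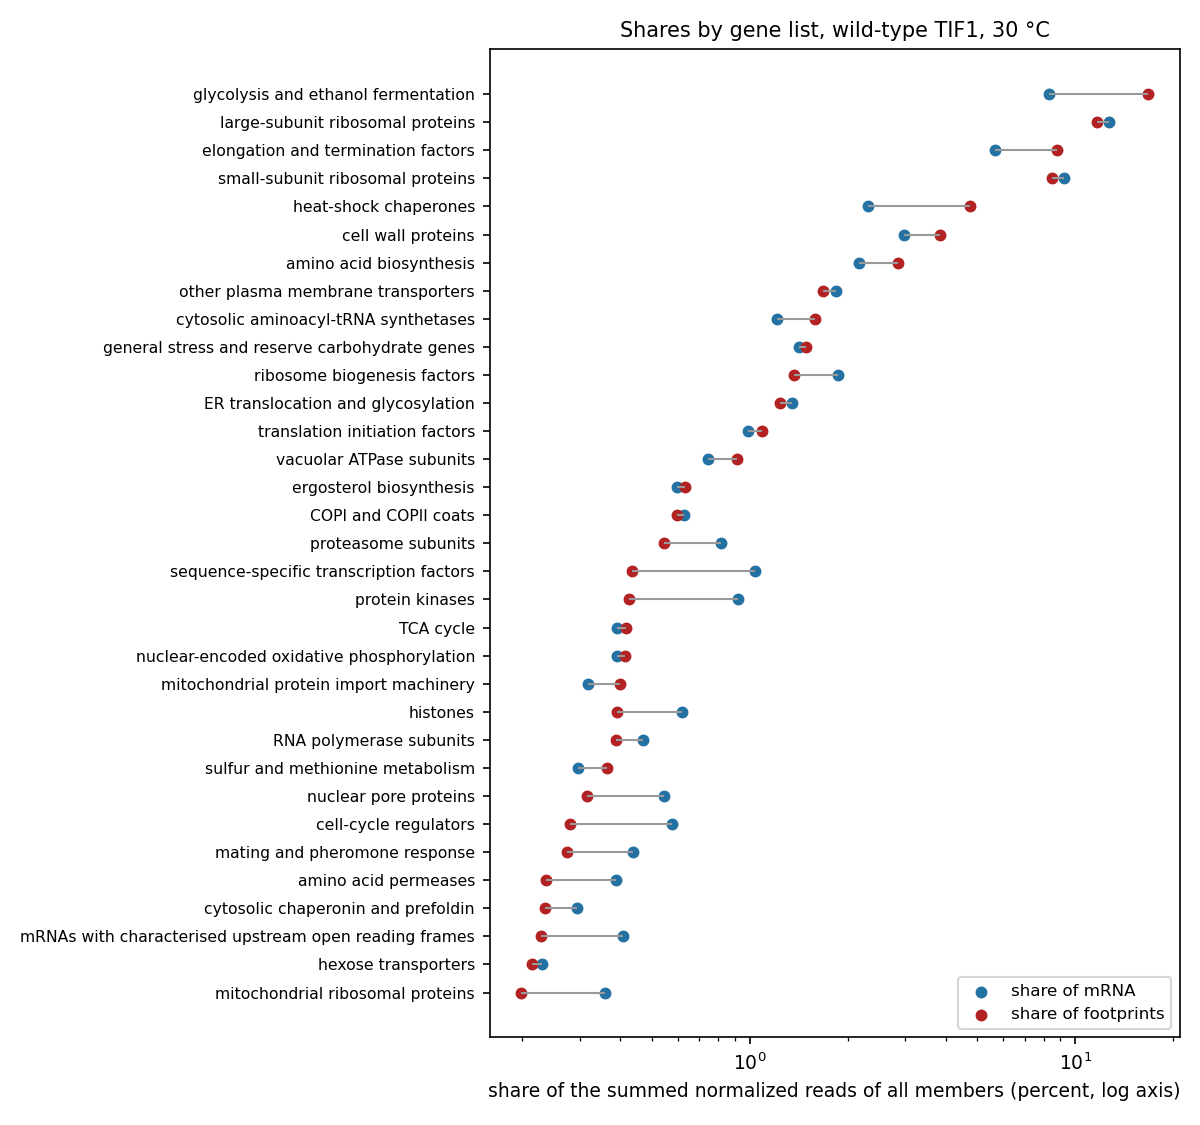
Share of the summed normalized reads of all members held by each of 33 gene lists in wild-type TIF1 at 30 °C, in percent on a log axis, with mRNA in blue and footprints in red. Glycolysis has 16.8% of footprints and 8.30% of mRNA, while transcription factors and kinases hold smaller shares of footprints than of mRNA.

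Subunits of stable complexes were compared per gene length, for 10 complexes chosen after the tables had been seen. Among the 6 ATPases of the proteasome base, mRNA levels had an SD of 0.27 on the log2 scale and footprint levels 0.12, a highest-to-lowest ratio of 1.62 for mRNA and 1.21 for footprints. The eIF3 core went from 0.60 to 0.32, the COPI coat from 0.49 to 0.26, prefoldin from 0.39 to 0.27 and the 20S core proteasome from 0.30 to 0.21. For the chaperonin CCT both SDs were 0.18. The F1 ATP synthase had 0.61 and 0.57, and the bc1 complex, where 7 of 8 subunits were members, 0.60 and 0.58. For the phosphofructokinase pair footprints had the larger SD, 0.15 against 0.11, and for the fatty acid synthase pair the smaller, 0.06 against 0.16. The spread of footprints was thus smaller than that of mRNA in some complexes, alike in others and larger for phosphofructokinase, with 2 to 14 subunits in each and no replicate error to set it against.

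**Figure D4:**
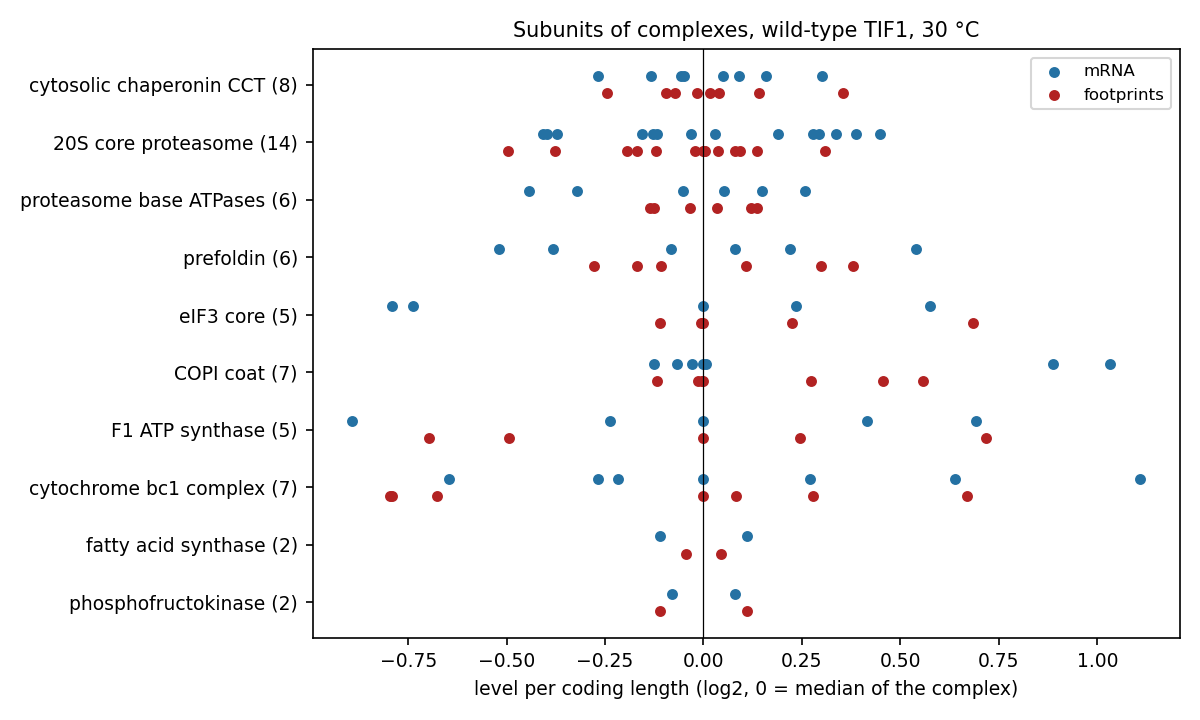
Levels per gene length, introns included (called coding length on the axis), of the subunits of 10 complexes in wild-type TIF1 at 30 °C. Values are on the log2 scale and relative to the median of the complex, with mRNA in blue and footprints in red. The number of member subunits stands in parentheses. Footprints span less than mRNA in the proteasome base and COPI, and about as much in the chaperonin CCT.

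The order of genes by TE was largely shared with the other wild-type groups. The tables were normalized separately, so TE was centred on the members in each. The rank correlation across genes was 0.84 with TIF1 at 37 °C (3620 genes), 0.77 with DED1 at 15 °C (3673) and 0.84 with DED1 at 37 °C (3774), and 0.89 with tif1-ts at 30 °C (3638). The points share gene length and sequence, and strain and temperature cannot be told apart for DED1. Genes at least 2-fold above the median here were followed where they also met the floor of 50 in the other wild-type group. Of these, 296 of 400, 215 of 398 and 297 of 402 were 2-fold above there too. For the low genes this held for 166 of 269, 121 of 281 and 182 of 304. Among all members here 10.7% were high and 8.05% low, and the shares of all members in the other groups were not counted. The SD of relative TE was 0.86 in TIF1 at 37 °C, 0.73 in DED1 at 15 °C and 0.89 in DED1 at 37 °C. A fixed 2-fold cut thus lies further out in the narrower spread at 15 °C, and the counts are not comparable between groups. Of 3546 genes at the floor in all 4 wild-type groups, 156 of the 354 with the highest TE here were among the highest 354 in each (44.1%), and 111 (31.4%) among the lowest 354 in each.

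**Figure D5:**
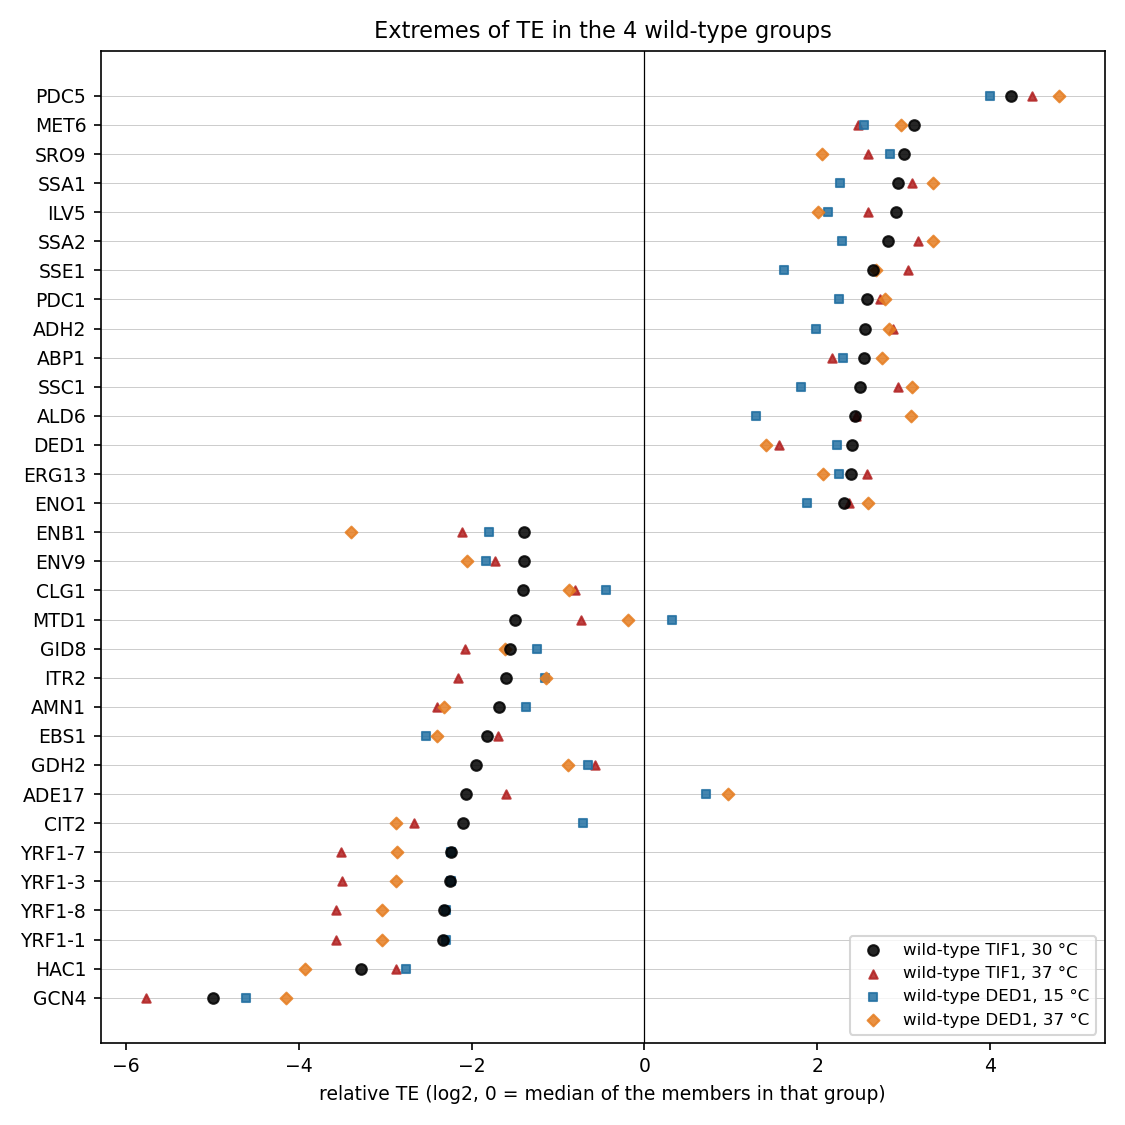
Relative TE (log2, 0 = median of the members in that group) of the 15 highest and 15 lowest named genes, GCN4 and HAC1 in the 4 wild-type groups, 1 value per gene and group. GCN4, HAC1 and YRF1 genes stay low and PDC5 high in each, while ADE17 is at -2.07 in TIF1 at 30 °C and above 0 in both DED1 groups.

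A few genes had a TE in this group at least 2-fold outside the range of the other wild-type groups. Compared were 2516 genes with a standard name, levels of at least 100 in both assays here and values in all 4 wild-type groups. By any margin, 618 stood above and 437 below all 3 other groups. At least 2-fold, 5 were under and 3 over the whole range of the other 3. These 5 and 3 genes were named after their values were seen. TSL1, a subunit of trehalose synthase, had -0.16 here and 1.45, 2.75 and 1.99 in TIF1 at 37 °C, DED1 at 15 °C and DED1 at 37 °C. PGM2, a phosphoglucomutase, had 0.19 against 1.53, 1.56 and 1.54. The other 30 °C group, tif1-ts, was near this one for PGM2 (0.16) and HSP78 (-0.07 against -0.02). TSL1 (0.49) and AIM17 (0.74 against 0.18) were higher in tif1-ts than here, but under their values in each other wild-type group. GDH2, AIM17 and HSP78 were the other low genes. The high genes were the nucleolar protein gene NSR1, at 0.97 against -0.57, -0.04 and -0.74, the helicase gene DBP2, at 1.26 against -0.38, 0.12 and 0.16, and AAH1, an adenine deaminase. In tif1-ts at 30 °C GDH2 had -0.83, within the range of the other wild-type groups. NSR1, AAH1 and DBP2 had 0.03, 0.03 and 0.52 there, under their values here but above those of each other wild-type group. For the stress list as a whole the median was 0.40 here and 0.97, 1.27 and 1.20 in the others, and the tif1-ts mutant at 30 °C had 0.80. No replicate spread is available to judge these differences.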

How the data were processed

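The deposited tables hold 1 column per group and assay, so the 2 footprint and the 2 mRNA replicates of wild-type TIF1 at 30 °C enter as 1 column each. The authors deposited log2 normalized read numbers per gene, not divided by length. The way they merged replicates, the annotation, the strand setting and the handling of reads with several matches are not stated in the sources used here. Tools named per the submitters' processing notes, with no role given, are Bowtie2 2.0.6, TopHat2 2.0.7, CASAVA 1.8 and DESeq, with the build sacCer2.

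TE was the footprint value minus the mRNA value, centred on the median of genes with at least 50 in both. No test was possible without replicates, and counts past 2-fold were used. Footprint depth was estimated from the spacing of low values, and that step was tested on simulated data. Of the rows, 4919 matched the R64 gene table and 2 did not. Symbols, gene lengths and gene order came from it. Gene length is the span of the gene with any introns included (96.3% multiples of 3). Levels per length are therefore too low for genes with introns. 44 members overlap another coding gene, and 8 share every value with another row. 0 value columns could not be assigned to a group. Python 3.11.15 with numpy 2.4.6, pandas 2.3.3, scipy 1.17.1 and matplotlib 3.10.9 was used.

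The members, the 33 lists and the rule for named genes were chosen with earlier results of these data known. The rule took named genes with levels of at least 100 in both assays: the 15 highest and 15 lowest, the 2 highest and 2 lowest of each list, the pairs of genes at the floor, and always GCN4, HAC1, CPA1, DED1, TIF2 and PMA1. Genes named by a list's role outside this rule, such as those given as examples of a pathway, were chosen after their values were seen. Alternatives varied the floor, the centre, the fold, the rounding of mRNA and the summary of lists. A further one left out overlapping genes, rows identical in every value and ribosomal protein genes named A or B. Start-codon context and upstream ATGs were planned as features and were not used here, as no sequence was at hand.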

Additional observations from a re-analysis of the deposited data

How the results depend on the processing

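No paired analysis was possible because the columns carry no replicate numbers, and no replicate could be left out for the same reason. The reference point mattered most: centred on total footprints over total mRNA, 0.83 above the median, 62 genes stood at least 2-fold above and 1522 below, and 7 of the 33 list medians were above it, against 403, 304 and 25. With a floor of 10 in both assays 591 genes were high and 664 low, and with the floor on mRNA only, an alternative added after seeing the data, 556 and 645, so that low genes then outnumbered high ones. With a floor of 200, 131 were high and 84 low, and the rank correlation of TE with mRNA per length was 0.31 in place of 0.41. Past 4-fold stood 43 and 30. These floors moved the median by -0.17 (floor of 10), -0.16 (mRNA only) and 0.46 (floor of 200), and with it all relative values. Counts stayed within 1.5 times the main ones with centring on the mean (380 and 318). The same held with mRNA moved against the call by 0.05, the most that rounding allows (367 and 266). It also held without overlapping genes, rows identical in every value and ribosomal protein genes named A or B (392 and 272). Other genes whose reads may be shared, such as YRF1-1, PDC1, SSA1, SSA2, ADH2, ENO1 and TIF2, stayed in that setting. Correlations with the other wild-type groups ranged from 0.76 to 0.86 over the settings run. Depth limits footprints to a counting SE of 0.154 at the floor; the error between cultures and that of mRNA is unknown.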
